A study of Mus musculus with 8 samples.

Results

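Hmga2 and a small group of genes controlled by the microRNA let-7 were followed across knockdowns of Tip60 and Hdac6 in mouse embryonic stem cells (ESCs). The group holds 6 of the 30175 gene names on the arrays: Hmga2, Hmga1, Lin28b, Igf2bp1, Igf2bp2 and Igf2bp3. All 11 probes that carry these names were taken, and 9 of them passed the filter on dim probes, with at least 1 probe for each gene. Hmga2 was chosen because it rose most of all 18116 genes tested in Hdac6 KD against control KD, so its values in any comparison with the control KD or Hdac6 KD arrays are descriptions and carry no test. The other 5 genes were added for their known links to let-7, with earlier results of these data known.

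The cells were E14 ESCs of the wild type, kept on gelatin without feeder cells in medium with serum and LIF, the cytokine that holds ESCs undifferentiated. All groups were infected with lentivirus that expresses a short hairpin RNA, and RNA was taken 72 h after infection. The 4 groups are control KD (a hairpin against GFP), Tip60 KD, Hdac6 KD and double KD of Tip60 and Hdac6, each with 2 biological replicates, A and B, on 8 arrays of 1 colour. Each gene was targeted by 1 hairpin, so an effect of the hairpin on other transcripts cannot be told apart from the loss of its target. Tip60 is the acetyltransferase encoded by Kat5, the catalytic subunit of the Tip60-p400 chromatin remodelling complex, and Hdac6 is a deacetylase that the study examined as a partner of that complex in ESCs.

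let-7 is a family of microRNAs that is kept low in early embryos and stem cells and rises as cells differentiate. A microRNA guides Argonaute proteins to mRNAs that pair with its seed, and the paired mRNA is then degraded or translated less. Lin28b binds let-7 precursors and blocks their maturation, while let-7 in turn represses the mRNA of Lin28b, so that each holds the other down. Hmga2, an architectural chromatin protein that binds the minor groove of AT-rich DNA, is a classical let-7 target with several sites in its mRNA, and the RNA-binding proteins of the Igf2bp family are targets as well. These genes are called oncofetal because they are high in the embryo, low in most adult tissues and high again in many tumours. Levels of let-7 itself were not analysed here.

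The mature let-7 sequences are shown first because the group was put together by known links to let-7. In addition, the main Hmga2 probe turned out to lie over a let-7 seed match. Of 11 mature names in RefSeq (GRCm38.p6), 10 share 1 seed, and 5 of them are printed here with the seed, bases 2 to 8, in capitals.
mmu-let-7a-5p: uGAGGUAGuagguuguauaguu
mmu-let-7e-5p: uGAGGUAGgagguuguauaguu
mmu-let-7g-5p: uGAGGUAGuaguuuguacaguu
mmu-let-7i-5p: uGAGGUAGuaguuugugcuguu
mmu-miR-98-5p: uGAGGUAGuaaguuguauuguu
The remaining name, mmu-let-7j, has another base at the end of its seed.

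The Hmga2 probe that represents the gene covers chr10:119798739-119798798 (mm9, minus strand), in the Hmga2 mRNA according to the array design. The stretch of 24 bases around its seed match, chr10:119798742-119798765, reads as follows on the mRNA strand, with the bases that pair with the seed in capitals.
Hmga2 probe site: aaaacacactaCTACCTCttaagt
Counted from base 2 of the microRNA, 10 bases of let-7a, 7 of let-7e, 11 of let-7g, 11 of let-7i and 9 of miR-98 pair with this site without a break. The motif CTACCTC stands in the sense strand of 150 of 39429 probes (0.38%), and in 1 of the 11 probes of the group. A match within a probe is a description of the transcript and not a measure of repression.

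**Figure D1:**
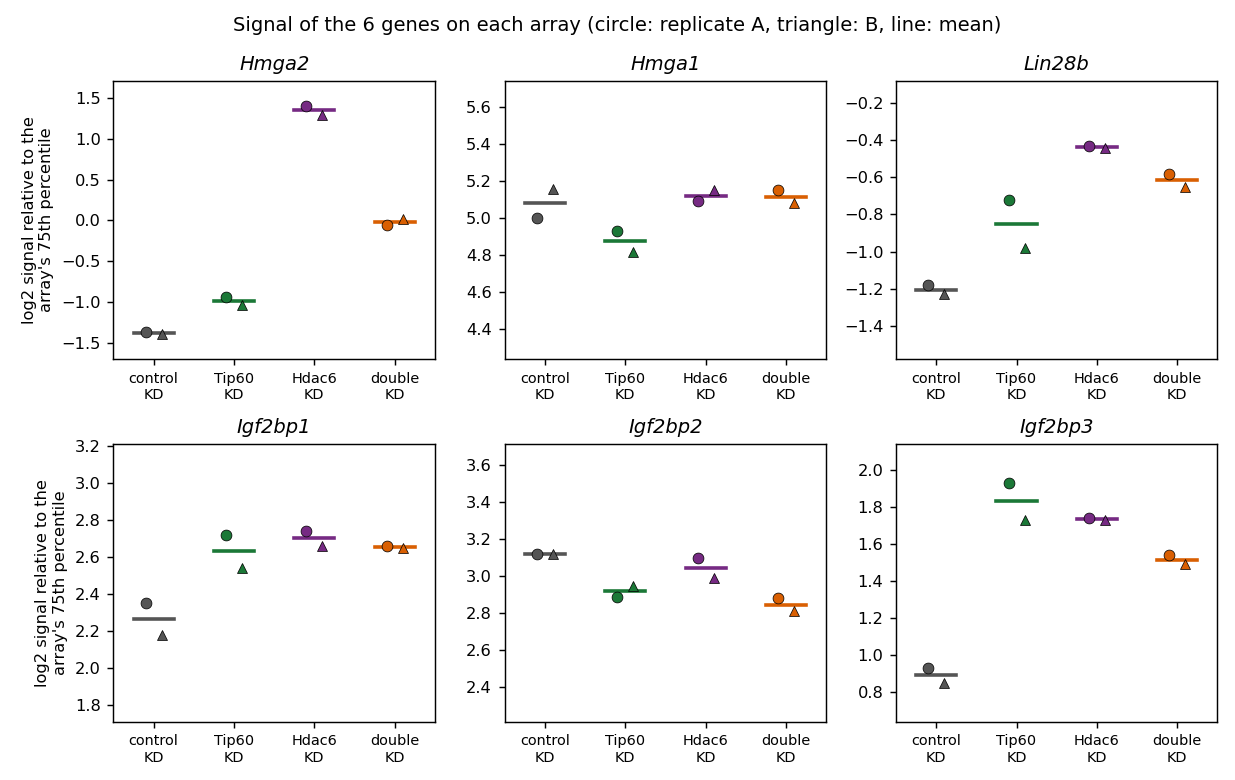
Signal of the 6 genes on each of the 8 arrays, as log2 of the processed signal relative to the array's 75th percentile, with 1 probe per gene. Circles are replicate A, triangles replicate B and lines the group means, and the vertical scale of Hmga2 spans a wider range than the others. Hmga2 is highest in Hdac6 KD, while Igf2bp3 is higher than control KD by 0.62 to 0.94 in all 3 knockdowns.

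Hmga2 was low in control KD and stood at a different level in each knockdown. Its levels, as log2 of the signal over the array's 75th percentile, were -1.37 and -1.39 in the control (replicates A and B), -0.94 and -1.03 after Tip60 KD, 1.40 and 1.29 after Hdac6 KD, and -0.05 and 0.02 after double KD. The order was Hdac6 KD, double KD, Tip60 KD and control KD, and the arrays of no group overlapped those of another. Against control KD the mean difference was 2.72 upon Hdac6 KD (6.60-fold), 1.36 upon double KD (2.58-fold) and 0.40 upon Tip60 KD (1.32-fold). With the mean of both probes they became 1.96, 0.69 and 0.20. These differences are given without a test. In Hdac6 KD the next largest increases among all genes were 2.46 for Lefty2, a Nodal antagonist, and 2.34 for Enox1.

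Within slides the order was the same. Replicate letter and slide coincide, and the Hmga2 difference in Hdac6 KD was 2.77 on the slide of the A arrays and 2.68 on that of the B arrays. In double KD it was 1.32 and 1.41, and in Tip60 KD 0.43 and 0.36. The summed level of 10 markers of primed epiblast, the state that ESCs pass through on leaving the naive state, was also higher in Hdac6 KD (24.4 to 24.6 times the 75th percentile) and double KD (19.7 to 20.4) than in the control (17.2 to 17.6), and in Tip60 KD it was lower (16.9 to 17.1). Dnmt3b alone gave 10.1 to 10.9 in the control and 15.4 to 15.9 in Hdac6 KD, and the sum of the other 9 was 6.70 to 7.11 in the control, 7.11 to 7.78 after Tip60 KD, 8.64 to 9.02 after Hdac6 KD and 7.46 to 8.20 after double KD. The part of these markers in the level of Hmga2 was not tested. In bulk RNA, fewer cells of a type and less RNA per cell cannot be told apart.

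Only the Hmga2 difference between double KD and Tip60 KD used none of the arrays by which the gene was chosen. It asks what Hdac6 KD adds once Tip60 is depleted. Here Hmga2 was higher in double KD by 0.97 (SE 0.08, 1.96-fold, 95% interval 0.77 to 1.17 on the log2 scale, limma adjusted p 0.0365, n = 2 each). The SE, interval and adjusted p still took their spread from the fit to all 8 arrays, the control KD and Hdac6 KD arrays among them. On the A slide the difference was 0.89 and on the B slide 1.05. Across all genes 3.71% were called in this comparison at an adjusted p under 0.1, the threshold used throughout. With the replicate letter as a block in the fit, the limma adjusted p was 0.00863, where 26.2% of all genes were called. The size of the Hmga2 difference stayed between 0.84 and 1.02 apart from the fit to the mean of its probes (0.49), but the call was lost whichever of the 8 arrays was left out (adjusted p 0.126 to 0.253), with normexp background correction (0.112) and with only the compared arrays in the fit (0.361). Across all genes 672 were called by limma here, 12 without Tip60 KD array B and 0 without any other single array (2272 to 2871 of 18116 at an unadjusted p under 0.05).

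The targeted genes bear on how the groups compare. Upon Hdac6 KD, Hdac6 signal was 17.8% of the control, and upon double KD 27.3%, a difference of 0.62 on the log2 scale (limma adjusted p 0.0147). The mean Hmga2 level of double KD minus that of Hdac6 KD was -1.36 (description, no test), and the part of the unequal Hdac6 depletion in it was not tested. Kat5 signal was 39.2% of control KD in Tip60 KD and 40.4% in double KD. Hdac6 was also lower in Tip60 KD, at 73.9% of control KD (adjusted p 0.00622).

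A second Hmga2 probe, at chr10:119800621-119800680 (mm9, minus strand), was dimmer. It lay at the floor, the lowest level that could be compared across arrays (-2.71), on both control KD arrays, on both Tip60 KD arrays and on double KD array A, and read -2.67 on double KD array B. In Hdac6 KD it read -1.56 and -1.47, so that this probe was at least 2.29-fold higher in Hdac6 KD than in control KD. Both probes were highest in Hdac6 KD, and at the second one Tip60 KD and double KD could not be compared, since nearly all of their values lay at the floor. The second probe passed the filter on dim probes only through the Hdac6 KD arrays, by which Hmga2 was chosen. Its reading there is therefore a description with no test. The probe of the pseudogene Hmga2-ps1 lay at the floor on all 8 arrays.

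**Figure D2:**
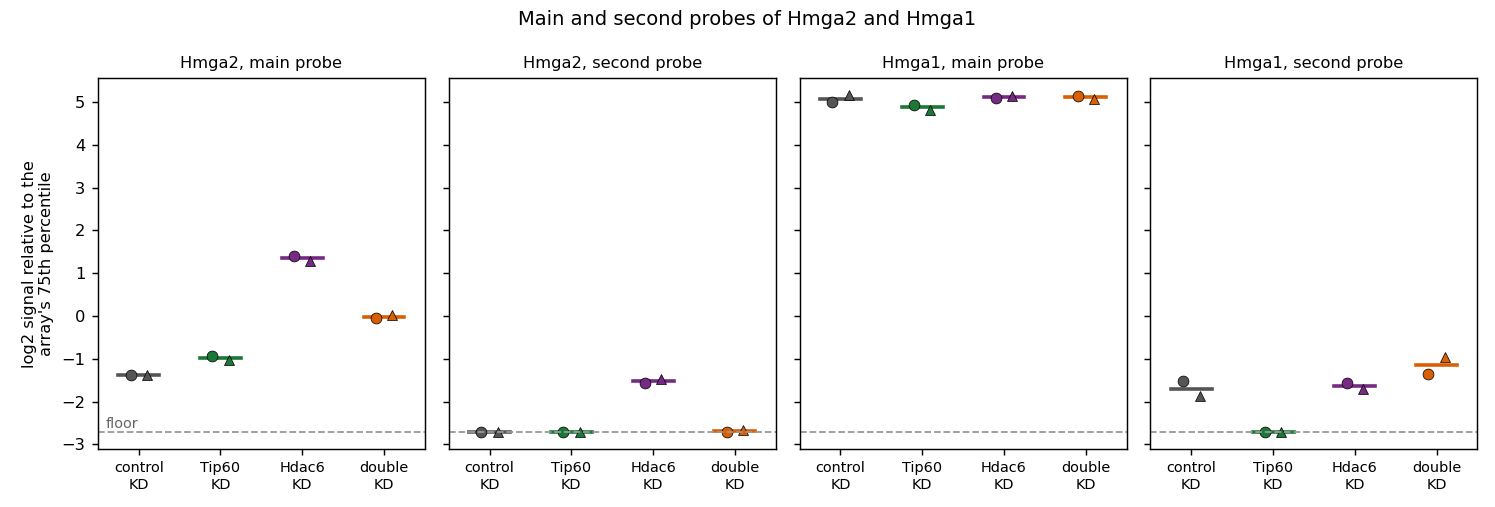
Log2 signal relative to the array's 75th percentile for the main and the second probe of Hmga2 and of Hmga1 on each array (circle: replicate A, triangle: replicate B, line: group mean). The dashed line is the floor at -2.71. The second Hmga2 probe leaves the floor clearly in Hdac6 KD, and the second Hmga1 probe lies on it in Tip60 KD.

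Lin28b, the inhibitor of let-7 maturation, rose in all 3 knockdowns. Its probe (chr10:45096468-45096527, mm9, minus strand) read -1.18 and -1.23 in the control, -0.72 and -0.98 after Tip60 KD, -0.43 and -0.44 after Hdac6 KD, and -0.58 and -0.65 after double KD. The control arrays were lowest, and the order of the groups was that of Hmga2. The rise was largest upon Hdac6 KD, at 0.76 (SE 0.10, 1.7-fold, limma adjusted p 0.007). Double KD gave 0.58 (SE 0.10, 1.5-fold, adjusted p 0.0122), and Tip60 KD alone 0.35 (SE 0.10, 1.28-fold, adjusted p 0.0462). It was higher in Hdac6 KD than in Tip60 KD by 0.41 (adjusted p 0.0464). Double KD lay between them and was not called against either, with differences of 0.23 from Tip60 KD (95% interval -0.02 to 0.48, adjusted p 0.333, and 0.0984 with the replicate block) and -0.18 from Hdac6 KD (95% interval -0.43 to 0.07, adjusted p 0.427).

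The rise of Lin28b in Tip60 KD was the least firm. It was lost without control KD array A or B or Tip60 KD array A (adjusted p 0.125, 0.161 and 0.148), with normexp (change of 0.20), with a common background (0.21), with quantile normalization (0.31), in the series matrix (0.18) and with only the compared arrays in the fit (0.35). The difference between Hdac6 KD and Tip60 KD was lost without Tip60 KD array B (adjusted p 0.145) or without Hdac6 KD array A or B (0.178 and 0.171), in the series matrix (0.112) and with only the compared arrays (0.152). The call in double KD was lost in the series matrix (0.39, adjusted p 0.103). A second Lin28b probe (chr10:45140412-45140471) lay at the floor on all 8 arrays and was not tested.

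Igf2bp3 changed most against control KD of the 5 genes other than Hmga2, by the probe that represents each gene. This RNA-binding protein is made in the embryo and in many cancers. Its probe (chr6:49035710-49035769, mm9, minus strand) read 0.93 and 0.85 in the control, 1.93 and 1.73 after Tip60 KD, 1.74 and 1.73 after Hdac6 KD, and 1.54 and 1.49 after double KD. Every knockdown array lay above both control arrays. Upon Tip60 KD it rose by 0.94 (SE 0.09, 1.92-fold, limma adjusted p 0.00159). Hdac6 KD raised it by 0.84 (SE 0.09, 1.79-fold, adjusted p 0.00426), and the increase was 0.62 when both were depleted (SE 0.09, 1.54-fold, adjusted p 0.00742). All 3 calls held under each of the 20 alternatives. Tip60 KD and Hdac6 KD did not differ detectably (0.10, 95% interval -0.13 to 0.33, adjusted p 0.619). Double KD was lower than Tip60 KD by a difference of -0.32 that was not called (adjusted p 0.173), but was called with the replicate block (0.0338).

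Igf2bp1 rose by a smaller amount. The protein binds and stabilises mRNAs that include Myc. Its probe (chr11:95824526-95824585, mm9, minus strand) read 2.35 and 2.18 in the control, 2.72 and 2.54 after Tip60 KD, 2.74 and 2.66 after Hdac6 KD, and 2.66 and 2.65 after double KD. Each knockdown array lay above the control arrays, and the 3 knockdowns overlapped each other. Tip60 KD raised it by 0.36 (SE 0.10, limma adjusted p 0.0399), Hdac6 KD by 0.43 (SE 0.10, adjusted p 0.0322) and double KD by 0.38 (SE 0.10, adjusted p 0.0401). Without control KD array B the call was lost in all 3 knockdowns (changes of 0.27, 0.35 and 0.30), and it was lost as well without Tip60 KD array A, without either Hdac6 KD array and without either double KD array in the comparison that uses them.

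Igf2bp2, the family member that stays expressed in adult tissue, was not called higher in any knockdown. Its main probe (chr16:22059260-22059319, mm9, minus strand) read 3.12 and 3.12 in the control, 2.89 and 2.95 after Tip60 KD, 3.10 and 2.99 after Hdac6 KD, and 2.88 and 2.81 after double KD. All knockdown arrays lay below both control arrays, those of double KD the furthest. Igf2bp2 fell upon Tip60 KD by 0.21 (SE 0.08, limma adjusted p 0.0984) and upon double KD by 0.28 (SE 0.08, adjusted p 0.0507), and upon Hdac6 KD the difference was -0.08 (adjusted p 0.559). The call in Tip60 KD was lost under 17 of 20 alternatives, leaving out any of the 8 arrays among them, and the call in double KD under 10, including the loss of any control KD or double KD array. A second probe (chr16:22059582-22059641) gave 0.04 upon Tip60 KD, 0.16 upon Hdac6 KD and -0.14 upon double KD (SE 0.08 each), so the probes differed in sign in both single knockdowns.

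Hmga1, the close relative of Hmga2 that is strongly expressed in ESCs, showed no call. Its main probe (chr17:27700543-27700602, mm9, plus strand) read 5.00 and 5.16 in the control, 4.93 and 4.82 after Tip60 KD, 5.09 and 5.15 after Hdac6 KD, and 5.15 and 5.08 after double KD. Only the Tip60 KD arrays lay below both control arrays. The differences from control KD were -0.20 in Tip60 KD (95% interval -0.43 to 0.02, limma adjusted p 0.153, and 0.087 with the replicate block), 0.04 in Hdac6 KD (95% interval -0.18 to 0.27) and 0.03 in double KD (95% interval -0.19 to 0.26).

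The probes of Hmga1 disagreed in size. A second probe, assigned by the array design to another transcript record of the gene (chr17:27696588-27696647), read -1.53 and -1.88 in the control, -2.71 and -2.71 after Tip60 KD, -1.57 and -1.71 after Hdac6 KD, and -1.36 and -0.95 after double KD. It lay at the floor on both Tip60 KD arrays, so it was at least 2.01-fold lower there than in control KD. Its difference between double KD and control KD was 0.55 (SE 0.17), against 0.03 at the main probe. When the kept probes were averaged, Hmga1 was called lower in Tip60 KD (-0.60, adjusted p 0.00461) and higher in double KD (0.29, adjusted p 0.0606). Double KD exceeded Tip60 KD by at least 1.55 at the second probe, against 0.24 at the main probe. With the kept probes averaged this difference was 0.90 and was called (limma adjusted p 0.0377). The third Hmga1 probe (chr17:27693913-27693973) lay at the floor on 7 of 8 arrays and was not tested.

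**Figure D3:**
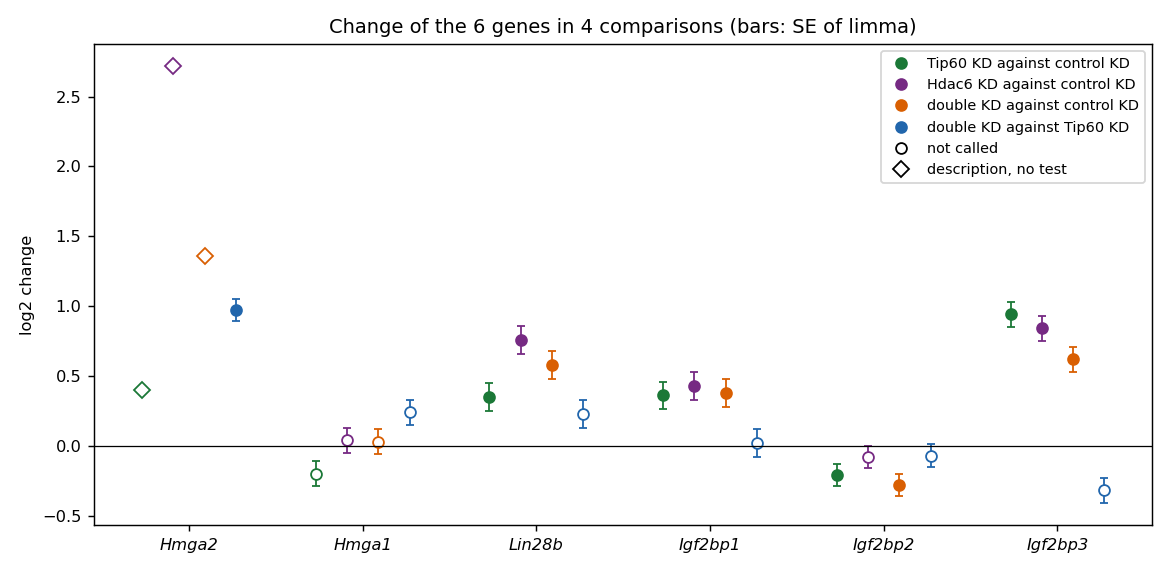
Log2 change of the 6 genes in the 3 comparisons with control KD and in double KD against Tip60 KD. Bars are the standard error of limma, filled circles are called at an adjusted p under 0.1, open circles are not, and diamonds are Hmga2 values given as a description with no test. Lin28b, Igf2bp1 and Igf2bp3 lie above 0 in all 3 comparisons with control KD.

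Counted together, 4 of the 5 genes other than Hmga2 were called upon Tip60 KD (3 higher, 1 lower), 3 upon Hdac6 KD (all higher) and 4 upon double KD (3 higher, 1 lower). Calls were common on these arrays. In Tip60 KD 39.7% of all genes were called, 19.7% higher and 20% lower. In Hdac6 KD 28.9% were called, 14% higher and 14.9% lower, and in double KD 32.8%, 15.9% higher and 16.9% lower. The 3 comparisons share the control KD arrays, so that a pair of low control arrays would raise a gene in each. The count of 4 in Tip60 KD became 2 with normexp, with quantile normalization, in the series matrix and without control KD array A. It became 1 with only the compared arrays in the fit, without control KD array B and without Tip60 KD array A. The count of 4 in double KD became 2 in the series matrix, without control KD array B and without either double KD array. In Hdac6 KD it was 2 without control KD array B and without either Hdac6 KD array. In double KD against Tip60 KD, 0 of the 5 genes were called by limma, 2 had an unadjusted p under 0.05, and with the replicate block 2 were called (Lin28b and Igf2bp3). All genes were called at 3.71% without and 26.2% with the block in this comparison. In double KD against Hdac6 KD 0 of 5 were called by limma, where 10.1% of all genes were, 1 had an unadjusted p under 0.05, and with the block Igf2bp3 was called (difference of -0.22, adjusted p 0.0733), where 29.4% of all genes were. Between Tip60 KD and Hdac6 KD 1 of 5 was called (Lin28b), where 23.5% of all genes were.

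Whether the knockdowns added up was examined next. The interaction term is the change upon Hdac6 KD in Tip60 KD cells minus that in control KD cells, and it is 0 where the single changes add up on the log2 scale. For Igf2bp3 it was -1.16 (SE 0.13, limma adjusted p 0.00935): Hdac6 KD gave 0.84 in control KD cells and -0.32 in Tip60 KD cells. For Lin28b it was -0.53 (SE 0.14, adjusted p 0.0647), from 0.76 to 0.23. For Igf2bp1 it was -0.41 and was not called (adjusted p 0.118, and 0.0206 with the replicate block, under which 47.1% of all genes were called), from 0.43 to 0.02.

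Hence 2 of the 5 genes were called for the interaction, both with a negative term, where 22% of all genes were. The term was 0.01 for Igf2bp2 and 0.19 for Hmga1, neither of them called. For Hmga2 the change upon Hdac6 KD was 2.72 in control KD cells and 0.97 in Tip60 KD cells, a difference of -1.75 that is a description. Tip60 KD went with a higher Hmga2 level in control KD cells (0.40) and a lower one in Hdac6 KD cells (-1.36). The control arrays enter the interaction term and the single changes with opposite signs, so a negative term beside single increases is partly built into the calculation. The depletion of Hdac6 itself was also unequal. Upon Hdac6 KD its signal changed by -2.49 in control KD cells and by -1.44 in Tip60 KD cells (interaction term 1.05, limma adjusted p 0.00764). The part of this unequal depletion in the terms of the 6 genes was not tested. The call for Igf2bp3 held under all 19 alternatives (-1.26 to -1.06, adjusted p 0.0015 to 0.0513), and that for Lin28b was lost under 13 of 19, with adjusted p up to 0.261.

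**Figure D4:**
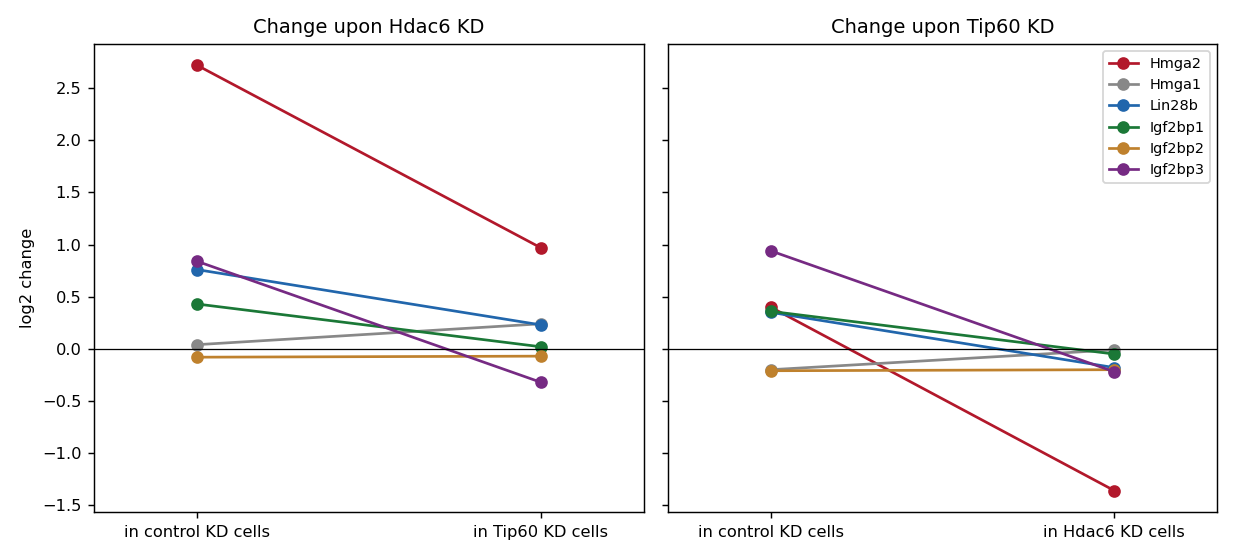
Log2 change upon Hdac6 KD in control KD and in Tip60 KD cells (left) and upon Tip60 KD in control KD and in Hdac6 KD cells (right) for the 6 genes, from the group means of 2 arrays each. The lines of Hmga2, Igf2bp3, Lin28b and Igf2bp1 fall from left to right in both panels, while those of Hmga1 and Igf2bp2 stay within 0.24 of 0. A gene falls by the same amount in both panels by calculation, since each fall is its interaction term.

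The genes whose 8 values ran most closely with those of Hmga2 were picked by Pearson's r among 1398 genes that had values on each array and group means at least 1 apart. They were Trim2, a ubiquitin ligase (r 0.992), G3bp2, a stress granule protein (0.992), Sned1 (0.987), Klf3, a zinc finger repressor (0.983), and 1110006E14Rik (0.982). Trim2, for example, read -0.44 and -0.57 in the control, -0.33 and -0.21 after Tip60 KD, 0.80 and 0.80 after Hdac6 KD, and 0.24 and 0.25 after double KD. Of the other genes of the group, Lin28b followed Hmga2 most closely (r 0.906), and the others had r of 0.689 (Igf2bp1), 0.531 (Igf2bp3), 0.467 (Hmga1) and -0.0941 (Igf2bp2). These correlations describe 4 groups of 2 arrays, share the same arrays and scaling, and are given with no p.

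Other let-7 targets moved both ways. From here on, where 3 changes follow each other they are those against control KD upon Tip60 KD, then Hdac6 KD, then double KD. Of 29 listed, 25 passed the filter. In Hdac6 KD 9 were higher and 1 lower, with a median change of 0.16 beside 0.03 over all genes tested, of which 14% were higher and 14.9% lower. In Tip60 KD 7 were higher and 8 lower (median -0.09 beside 0.06), where 19.7% and 20% of all genes were. In double KD they were also 7 and 8 (median -0.02 beside 0.05), where 15.9% and 16.9% were. The 15 calls in double KD became 9 without control KD array A and 8 without double KD array B.

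Myc, the growth-promoting transcription factor, had the largest measured change of the list. It read 0.34 and 0.26 in the control, 3.57 and 3.33 after Tip60 KD, 2.35 and 2.16 after Hdac6 KD, and 3.52 and 3.23 after double KD. It rose by 3.15, 1.96 and 3.08 (limma adjusted p 0.00051, 0.00188 and 0.000795). Ccnd2, which encodes cyclin D2, lay at the floor on both control arrays and rose by at least 3.08, 1.11 and 2.24. Arid3a, a DNA-binding protein of early development, fell by 1.32, 0.69 and 0.87. Between the single knockdowns the order was opposite to that of Hmga2: Tip60 KD exceeded Hdac6 KD by 1.19 for Myc (limma adjusted p 0.00609) and by 1.98 for Ccnd2 (adjusted p 0.000936). Of the 25 targets 2 were higher and 11 lower in Tip60 KD against Hdac6 KD, where 23.5% of all genes were called in either direction.

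The let-7 processing genes also moved both ways, with 20 of 21 tested and 3 of the genes shared with the target list. Tip60 KD raised 7 and lowered 5, Hdac6 KD raised 7 and lowered 1, and double KD raised 8 and lowered 3. These are 12, 8 and 11 of 20 genes, where 39.7%, 28.9% and 32.8% of all genes were called. The 8 calls upon Hdac6 KD became 5 without either control KD array and without Hdac6 KD array A. The 11 upon double KD became 5 without either control KD array, and 4 and 7 without double KD array A and B. Dicer1, which cuts the microRNA precursor and is itself a let-7 target, read 3.08 and 3.08 in the control, 1.73 and 1.58 after Tip60 KD, 2.92 and 2.78 after Hdac6 KD, and 2.28 and 2.11 after double KD. It fell by 1.42 in Tip60 KD (limma adjusted p 0.000809) and by 0.89 in double KD (adjusted p 0.00375), and the difference of -0.23 in Hdac6 KD was not called (adjusted p 0.176).

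Lin28a, the paralog of Lin28b that marks ESCs, rose by 0.54, 0.52 and 0.64 (limma adjusted p 0.0105, 0.0194 and 0.00878). Trim71, an RNA-binding let-7 target of stem cells, rose upon Hdac6 KD by 0.60 (adjusted p 0.0166) and upon double KD by 0.44 (adjusted p 0.0357), with -0.03 upon Tip60 KD. Prkra, a Dicer partner, fell by 0.56, 1.02 and 0.89. Tnrc6b, which links Argonaute to mRNA decay, rose by 0.79, 0.87 and 0.89.

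**Figure D5:**
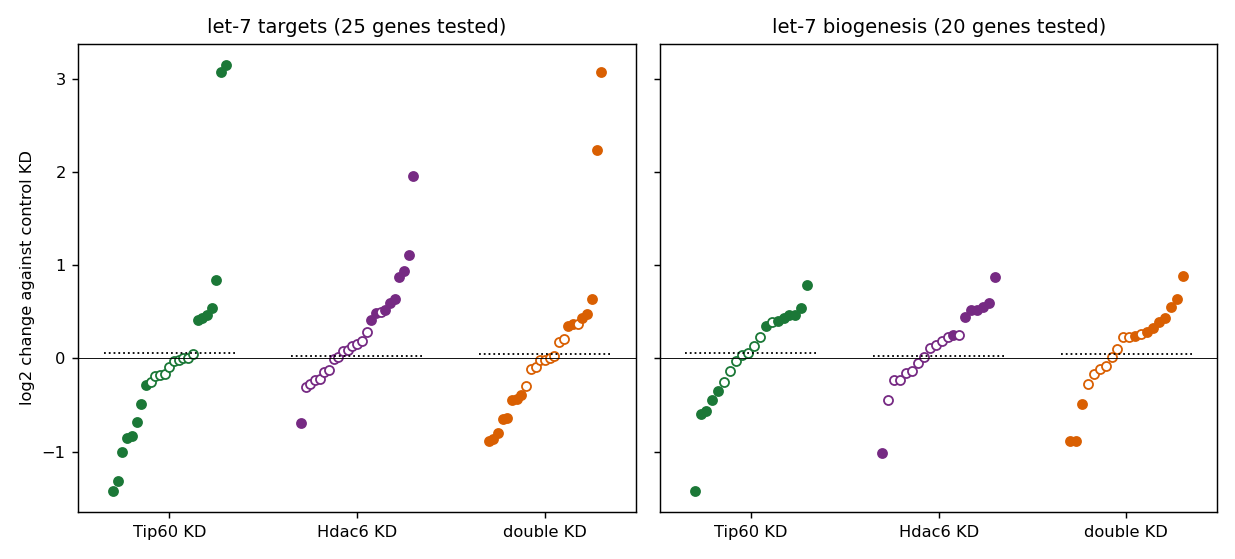
Log2 change against control KD of each tested let-7 target (left) and let-7 biogenesis gene (right), ordered by size within each knockdown. Filled circles are called at an adjusted p under 0.1, open circles are not, and the dotted line is the median of all 18116 genes tested. In Hdac6 KD, 9 targets lie above and 1 below 0 among those called, and in Tip60 KD 7 and 8.

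Genes were also grouped by the site that the Hmga2 probe carries, a grouping made after the data had been seen. Of the genes tested, 91 were represented by a probe with CTACCTC. In Hdac6 KD 22% of them were higher and 7.69% lower, with a median change of 0.17, beside 14% and 14.9% of all genes. In Tip60 KD 23.1% were higher and 9.89% lower (median 0.18), beside 19.7% and 20% of all genes. In double KD the shares were 25.3% and 11% (median 0.18), beside 15.9% and 16.9%. Over all genes the medians were 0.06, 0.03 and 0.05. The 91 genes include Hmga2, whose probe gave the grouping and which was chosen for its rise in Hdac6 KD. The shares were not taken again without Hmga2. No median moved when Hmga2 was left out, and no test was made.

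The promoters are shown for Igf2bp3 and Lin28b, whose windows hold CACGTG, and for Hmga2, whose window holds GGGCGG instead. The windows of 300 bases, which run to 50 bases past each start site in RefSeq (GRCm38.p6), were searched on both strands for the E-box CACGTG, a site of Myc and related factors. The GC box (GGGCGG), the CCAAT box and the TATA box (TATAAA) were searched in the same way. CACGTG stood in 7.15% of all 32851 promoter windows, in the windows of Igf2bp3 (2 copies) and Lin28b (1 copy), and in none for Hmga2, Hmga1 and Igf2bp2. GGGCGG stood in 35.7% of all windows, and in those of Hmga2 (1 copy), Hmga1 (4 copies in each of its 2 windows) and Igf2bp2 (2 copies). CCAAT stood in 37.4% of all windows, and in those of Igf2bp3 and Lin28b (1 copy each). TATAAA stood in 13.6% of all windows and in none of these.

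The 150 bases before each start site are printed on the strand of the gene. Capitals mark CACGTG in the first 2, where it begins 23 bases before the start of Igf2bp3 and 49 before that of Lin28b. In Hmga2 they mark the reverse complement of GGGCGG, which begins 133 bases before the start. The windows are chr6:49214955-49215104, chr10:45470202-45470351 and chr10:120476470-120476619, all on the minus strand.
Igf2bp3 promoter: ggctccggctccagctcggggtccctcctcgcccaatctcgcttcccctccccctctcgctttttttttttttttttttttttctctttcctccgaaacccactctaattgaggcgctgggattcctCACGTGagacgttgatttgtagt
Lin28b promoter: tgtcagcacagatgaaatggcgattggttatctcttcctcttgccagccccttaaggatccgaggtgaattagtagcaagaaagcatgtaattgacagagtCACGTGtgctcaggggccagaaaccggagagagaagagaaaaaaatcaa
Hmga2 promoter: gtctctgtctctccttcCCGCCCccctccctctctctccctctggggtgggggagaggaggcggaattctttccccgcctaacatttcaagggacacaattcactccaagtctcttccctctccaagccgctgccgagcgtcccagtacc
A match in these windows says nothing of whether a factor was bound, and binding was not measured here.

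Partners of the Igf2bp proteins and the Igf2 pathway were looked at next. Of 13 tested genes 0 rose and 4 fell in Tip60 KD, where 19.7% of all genes were higher and 20% lower. Hdac6 KD raised 3 and lowered 1, where 14% and 14.9% of all genes were. Double KD raised 2 and lowered 3, where 15.9% and 16.9% were. Igf2r, the receptor that clears Igf2, fell by 1.12, 0.56 and 0.75. Syncrip, which sits with Igf2bp1 on mRNAs, fell by 0.88 in Tip60 KD and 0.60 in double KD. Dhx9, an RNA helicase with 1 control array at the floor and the other close to it, rose by at least 0.77 in Hdac6 KD and 0.82 in double KD. Igf2 itself was close to the floor on all arrays (-2.71 to -1.86) and was not called in any knockdown.

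Of 11 other high mobility group genes tested, 1 was higher and 5 lower in Tip60 KD, beside 19.7% and 20% of all genes. Hdac6 KD had 3 higher and 1 lower, beside 14% and 14.9% of all genes. Double KD had 1 higher and 2 lower, beside 15.9% and 16.9%. Hmgb2, a DNA-bending protein of dividing cells, fell by 0.48, 0.35 and 0.35, and the nucleosome-binding Hmgn2 rose by 0.42, 0.61 and 0.38. Hmgn5 fell by 1.19 in Tip60 KD and by 0.74 in double KD.

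Genes that have been linked to Hmga2 in other cells moved both ways. Of 7 tested, Tip60 KD raised 1 and lowered 3, where 39.7% of all genes were called in either direction. Hdac6 KD likewise raised 1 and lowered 3, with a share of 28.9% over all genes. Double KD raised 2 and lowered 2, beside a share of 32.8%. Ccna2, which encodes cyclin A2, fell by 0.55, 0.28 and 0.46. E2f1 rose by 0.40 in Hdac6 KD and 0.57 in double KD. Snai1, a repressor of epithelial genes, lay at the floor on the control arrays and rose by at least 1.02 in Tip60 KD and 0.85 in double KD. In Hdac6 KD it lay at or next to the floor, so no change could be measured there. Snai2 fell by 0.43 in Tip60 KD and 0.54 in Hdac6 KD, but it was dim throughout. It read -2.02 and -2.26 in the control, -2.50 and -2.63 in Tip60 KD, and -2.65 and -2.70 in Hdac6 KD, next to the floor.

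Of 7 other oncofetal genes tested, 4 fell and 2 rose in Tip60 KD, where 20% of all genes were lower and 19.7% higher. Hdac6 KD lowered 1 and raised 1, where 14.9% of all genes were lower and 14% higher. Double KD lowered 3 and raised 1, where 16.9% were lower and 15.9% higher. Gpc3, a cell surface proteoglycan of the embryo and of liver tumours, fell by 1.86, 0.98 and 1.31. Cldn6, an embryonic tight junction protein, fell by 1.27 in Tip60 KD and 1.15 in double KD, Epcam by 0.70 and 0.55, and Peg10 by 1.16 in Tip60 KD.

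Markers of cell state were set beside these results. The summed level of 12 ESC markers, in units of the 75th percentile, was 389 to 398 in the control, 409 to 414 after Tip60 KD, 392 to 398 after Hdac6 KD and 418 to 439 after double KD. Of the 12, Tip60 KD raised 4, Hdac6 KD 3 and double KD 4, and double KD lowered 1. Of the 8 primed markers tested, Tip60 KD raised 3 and lowered 1, Hdac6 KD raised 5, and double KD raised 4 and lowered 1. Beside both lists, 19.7% of all genes were higher and 20% lower in Tip60 KD. In Hdac6 KD the shares were 14% and 14.9%, and in double KD 15.9% and 16.9%. Dnmt3b, a DNA methyltransferase, rose by 0.58 in Hdac6 KD (limma adjusted p 0.011), Sall2 rose by at least 1.48, 1.05 and 1.73 from the floor, and Fgf5 lay at the floor on all arrays. Dnmt3a fell by 1.73 in Tip60 KD and 0.98 in double KD.

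Part of the markers of differentiated cells lay at the floor. Of 6 endoderm markers 4 lay at the floor on all 8 arrays (Gata6, Foxa2, Sox7 and Pdgfra), as did T and Mesp1 of 5 mesoderm markers, Cdx2, Elf5 and Gata3 of 5 trophectoderm markers, Fabp7 of 5 neural markers, and Postn and Dcn of 7 fibroblast markers. Of the markers that could be tested, 0 of 2 endoderm and 0 of 4 neural ones were called by limma in a knockdown (0 at an unadjusted p under 0.05), and 1 of 2 mesoderm ones was (Eomes, 0.84 in Tip60 KD). The summed level of the neural list overlapped between control KD (1.73 to 2.17) and Hdac6 KD (1.81 to 2.37). The summed fibroblast markers were 2.32 to 2.54 in control KD, 2.40 to 2.48 in Hdac6 KD, 2.96 to 3.42 in Tip60 KD and 3.09 to 3.37 in double KD. Of 4 fibroblast markers tested 2 rose in Tip60 KD and 2 in double KD (Col1a1 by 0.98 and 0.79, Thy1 by 0.47 and 0.53), where 19.7% and 15.9% of all genes were higher. Mesoderm markers ranged from 1.22 to 1.52 in control KD and from 1.59 to 1.85 in the knockdowns, and endoderm markers from 0.917 to 1.26 over all arrays. The trophectoderm markers summed to 11.9 to 12.7 in the control, 4.74 to 5.20 after Tip60 KD, 9.09 to 10 after Hdac6 KD and 5.51 to 6.49 after double KD. This sum rested on Tfap2c, which ESCs also express, and Tfap2c fell by 1.38 in Tip60 KD and 1.08 in double KD.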

How the data were processed

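Total RNA was amplified and labelled with Cy3 and hybridised to Agilent mouse arrays by the authors. The deposited scanner files hold fluorescence intensity from Feature Extraction (version 10.7.1.1, per the submitters' processing notes), and the deposited series matrix holds log2 values that rank the probes as the median signal does, with their scaling not stated. Background subtraction was done by that software. Each array's processed signal was scaled to its own 75th percentile, values under 0.153 (log2 -2.71) were set to this common floor, and log2 was taken. The floor is the dimmest signal called well above background on the array where that signal was brightest. Of 43020 spots, 21896 to 40609 were well above background per array. On each slide the control KD array had the fewest, with 31179 on the A slide and 21896 on the B slide. The other arrays had 39622 to 40609 and 27056 to 40276. The control KD arrays also had the highest median background subtracted, at 61 and 114, against 37.2 to 39.4 and 41.4 to 89. The part of this in the changes against control KD was not tested. Outlier spots were left out and the spots of a probe averaged. Probes needed 2 arrays on which they were well above background and exceeded the floor, and a gene was represented by its kept probe of highest mean. Values at the floor were 8.86% of all, and the changes of genes there are bounds.

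All 18116 genes were tested with limma 3.58.1 in R 4.3.3 on the 8 arrays in 1 fit, without a block, 2-sided, with Benjamini-Hochberg adjustment over all genes and a threshold of 0.1, the one the study names for its own gene calls, whose adjustment is not given in the sources used here. Residual degrees of freedom were 4 and those of the prior 1.84, and precision is limited by the small number of arrays. A slide carried 1 array per group, so letter and slide coincide, and group cannot be separated from position on the slide. The A minus B differences of any 2 groups correlated across genes (r 0.651 to 0.799), so the letters pair the arrays, and a fit with the letter as a block was run as well. Other alternatives were normexp (offset 50), a common background, quantile normalization, the series matrix, other floors, no filter, the mean of probes, a GC trend, a threshold of 0.05, a fit to the compared arrays alone and each array left out. The fit was tested on simulated data drawn independently for each array, without the pairing of the letters, so that test does not bear on the pairing. Figures were made with matplotlib 3.10.9 in Python 3.11.15.

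The choice of the 6 genes, the lists and the naming rule was made with earlier results of these data known. Besides the 6, the targeted genes and the 5 genes most correlated with Hmga2, the text names Lin28a, Trim71, Dicer1, Igf2 and, from each list, at most 4 genes called in a knockdown, by the size of the change. Lefty2 and Enox1 were named after their values were seen. Probe positions are on mm9 as in the files, and RefSeq sequences are on GRCm38.p6. No entry for the Igf2bp1 promoter was used.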

Additional observations from a re-analysis of the deposited data

Results flagged for a closer look

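The change upon Hdac6 KD differed between control KD cells and Tip60 KD cells for 2 of the 5 genes other than Hmga2, by the interaction term of limma. For Igf2bp3 the term was -1.16 (adjusted p 0.00935), with -1.20 on the A slide and -1.11 on the B slide. For Lin28b it was -0.53 (adjusted p 0.0647), with -0.60 and -0.46. Of all genes 22% were called for this term. Hdac6 itself changed by -2.49 upon Hdac6 KD in control KD cells and by -1.44 in Tip60 KD cells. The part of this unequal depletion in the terms was not tested.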

How the results depend on the processing

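The number of genes called among the 5 other than Hmga2 was 4 in Tip60 KD, and 2 with normexp, 2 with quantile normalization, 2 in the series matrix and 1 with only the compared arrays in the fit; with an array left out it ranged from 1 to 3. In Hdac6 KD it was 3 and stayed between 2 and 3. In double KD it was 4, and 2 in the series matrix; with an array left out it ranged from 2 to 4. The Hmga2 difference between double KD and Tip60 KD (0.97) kept its direction but lost its call with normexp (0.84), with only the compared arrays (0.97), and with each array left out (0.92 to 1.02). With the replicate block (0.97) the call was kept. Directions turned only where the change was near 0. With an array left out, Hmga1 ranged from -0.036 (without control KD array A) to 0.12 upon Hdac6 KD and from -0.044 (without the same array) to 0.11 upon double KD, with -0.00096 without double KD array A. Igf2bp1 ranged from -0.063 (without Tip60 KD array B) to 0.11 in double KD against Tip60 KD, and was -0.0019 with the block and GC trend. Igf2bp2 upon Hdac6 KD was 0.039 with the mean of its probes and 0.00086 with the block and GC trend. The causes were not tested.

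With the replicate block, 11022, 9591, 10045 and 4748 genes were called upon Tip60 KD, upon Hdac6 KD, upon double KD and between double KD and Tip60 KD, beside 7201, 5240, 5939 and 672 without it, and the block gave 5, 3 and 4 of the 5 genes in the first 3. A fit with a slide block would be the same fit. The planned low floor came out below 0 and was not run; a floor of 0.05, chosen after seeing the data, took its place. Of the let-7 processing genes 8 were called in Hdac6 KD, and 5 to 13 under the alternatives, and 11 in double KD, and 4 to 15. Signal over background limits the second probes of Hmga2, Hmga1 and Lin28b, which lay at the floor on some or all arrays.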
